A study of Mus musculus with 4 samples.

Results

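The 36 genes described here encode the scaffold of the sarcomere, the contractile unit of striated muscle, and were measured in brown adipose tissue. They were chosen by gene symbol from 52022 genes in the deposited files, after earlier results of the same comparison had shown muscle genes to differ between the genotypes. Their difference between the genotypes is therefore a description. Calls from a fit over all genes are given for them only as a label of that fit, with no p-values, and support nothing. The set holds 5 thin filament genes, 8 thick filament genes, 4 genes of titin and the M-line, 14 Z-disc genes, 3 stretch-responsive genes and 2 genes of protein turnover.

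Male mice with free access to food were given a 60% high fat diet over 12 weeks before the tissue was taken. The KO group (2 libraries, KO 1 and KO 2) came from mice that lack ATF4, a transcription factor of the stress response, in thermogenic adipocytes, and the WT group (2 libraries, WT 1 and WT 2) came from their wild-type counterparts. Sex, feeding and diet were shared by both groups, and neither strain, age nor the way ATF4 was deleted is given in the sources used here. Whether each library is a separate animal is not stated, so the spread between libraries may be technical.

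In a sarcomere, thin filaments of actin slide along thick filaments of myosin. The thin filaments are anchored at the Z-disc, where actinin crosslinks them, and the thick filaments are held in register at the M-line, while titin runs between these structures and centres the thick filament. Brown adipocytes contain no sarcomeres, although they share a developmental lineage with skeletal muscle, and brown fat depots lie against muscle.

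The libraries held 25985367 and 30405113 estimated counts in KO 1 and KO 2, and 32714456 and 34813870 in WT 1 and WT 2. Atf4 was at 24.97 and 24.5 CPM (counts divided by the scaled library size) in KO 1 and KO 2, against 29.2 and 107 CPM in WT 1 and WT 2. WT 1 thus lay close to the KO libraries for the targeted gene (log2 fold change -1.46, SE 0.57, adjusted p = 0.9998 in edgeR's quasi-likelihood test). Every SE is derived from this test, as the size of the log2 fold change divided by the square root of the F statistic. Where WT counts are few, such an SE can lie below counting error, so it does not give the precision of a fold. The 7 brown adipocyte markers summed to 13686 and 11903 TPM (a level per transcript length, scaled within each library) in KO 1 and KO 2, against 12574 and 14788 TPM in WT 1 and WT 2, and 0 of them passed in edgeR, with 1 at an unadjusted p under 0.05. KO 1 and WT 2 carry the prefix S1 in their library names and KO 2 and WT 1 the prefix S2, so the prefix crosses genotype, and what it stands for is not stated.

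Promoter sequence was available for 25 of the 36 genes, in a RefSeq table on build GRCm38.p6, and 3 of these promoters are shown because their genes take different places in the results. Acta1 had the highest KO level, Myl1 the highest WT level, and Csrp3 the largest difference between the KO libraries among genes with at least 30 counts in both. The windows are the 250 bases before the RefSeq start, on the minus strand of chr8:123894776-123895025 (Acta1), chr1:66945057-66945306 (Myl1) and chr7:48843672-48843921 (Csrp3), each written 5′ to 3′. Capitals mark every match, on either strand, to CAGCTG (an E-box of the type bound by myogenic factors), the CArG box (bound by serum response factor), the MEF2 site, CATTCC (bound by TEAD factors) or TATAAA. MEF2 sites can contain the letters TATAAA, and none of the 25 promoters held both.
Acta1: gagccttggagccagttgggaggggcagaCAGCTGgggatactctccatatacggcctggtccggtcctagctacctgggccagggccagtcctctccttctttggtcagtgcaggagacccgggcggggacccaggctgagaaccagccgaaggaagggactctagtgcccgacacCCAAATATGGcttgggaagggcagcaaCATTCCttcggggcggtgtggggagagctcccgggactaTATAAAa
Myl1: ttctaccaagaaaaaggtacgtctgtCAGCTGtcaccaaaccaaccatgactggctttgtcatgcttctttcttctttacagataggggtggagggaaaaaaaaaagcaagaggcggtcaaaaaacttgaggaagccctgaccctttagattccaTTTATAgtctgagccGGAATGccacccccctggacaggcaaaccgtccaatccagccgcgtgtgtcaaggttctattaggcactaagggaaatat
Csrp3: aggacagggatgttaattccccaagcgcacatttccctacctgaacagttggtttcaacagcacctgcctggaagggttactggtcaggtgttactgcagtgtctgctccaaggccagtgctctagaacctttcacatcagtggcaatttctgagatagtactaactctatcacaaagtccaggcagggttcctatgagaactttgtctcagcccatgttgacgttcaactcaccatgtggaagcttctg
In the Acta1 window the E-box lay 221 bases before the RefSeq start, the CArG box 73, CATTCC 46 and TATAAA 7. The GENCODE start of Acta1-201 lies 24 bases downstream of the RefSeq start, so each match stands further from that start. In the Myl1 window the E-box lay 224 bases before the RefSeq start, and TATAAA 95 and CATTCC 80, both as reverse complements. The GENCODE start of the longer transcript, Myl1-201, lies inside this window, 87 bases before the RefSeq start, so CATTCC falls within that transcript. The shorter Myl1-202, to which 68.1 to 81.4% of Myl1 counts were assigned across the libraries, starts 9702 bases from the RefSeq start. The window is thus not at the start of that transcript. No match stood in the Csrp3 window, nor in those of Lmod2, Actn2 and Smpx. CAGCTG was present in 10 of the 25 promoters (40.0%), against 13.0% of all 32851 promoters in the table, and CATTCC in 9 (36%), against 12.6%. A CArG box was present in 5 (20.0%, against 1.47%), a MEF2 site in 5 (20.0%, against 2.92%) and TATAAA in 6 (24.0%, against 12.4%). These are counts of letters in a window and do not show binding. The Myl2 window, counted for CAGCTG and TATAAA, lies 7762 bases from the start of Myl2-201.

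In CPM all 36 genes were higher in both KO libraries than in both WT libraries, and most were close to absent from WT. The median WT level was 0.980% of the KO level in CPM, and 5 genes had 0 counts in both WT libraries. Together the 36 genes summed to 1313 and 968 TPM in KO 1 and KO 2, against 80.6 and 99.5 TPM in WT 1 and WT 2. They held 0.188% and 0.129% of gene counts in KO 1 and KO 2, against 0.00663% and 0.00820% in WT 1 and WT 2. In bulk tissue, fewer cells of a type and less RNA per cell cannot be told apart.

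In the edgeR fit over all 15643 genes tested, 34 of the 36 passed the filter on low counts, and 27 of these were called higher in KO at an adjusted p under 0.05, with 0 called lower. Of all genes tested, 0.767% were called higher, and 13.2% had both KO libraries above both WT libraries. Since the genes were chosen with this contrast in view, nothing is read from these shares. Mybph and Ankrd1 did not pass the filter, and Actc1, Myl1, Myom1, Myom3, Csrp3, Ankrd2 and Fbxo32 were tested and not called. With the library name prefix as a block, 32 of the 34 were called, Actc1, Myl1, Myom1, Csrp3 and Ankrd2 included. The median log2 fold change of the 34 was 6.67 (range 0.63 to 12.88), and 6.54 with the genes at 0 counts in WT set to a bound of 3 counts over both WT libraries. Across all tested genes the median was 0.00.

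**Figure D1:**
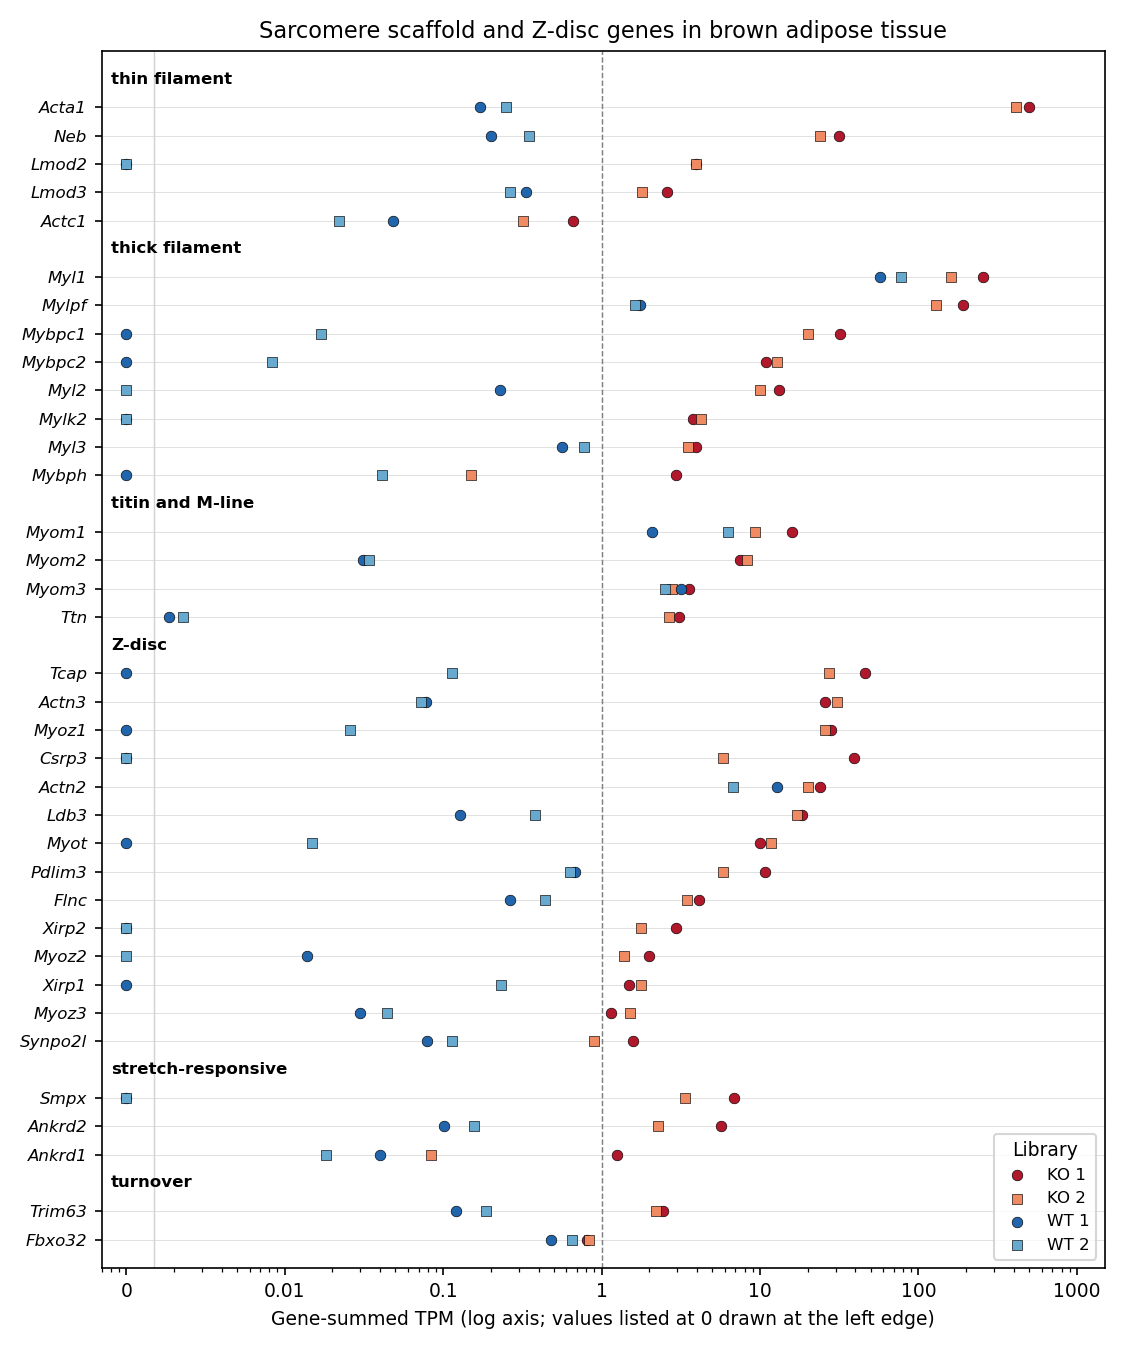
Level of each of the 36 genes in TPM (log axis, genes grouped by role) in KO 1, KO 2, WT 1 and WT 2, with values listed at 0 drawn at the left edge and 1 TPM dashed. KO points lie to the right of WT points for every gene but Myom3, with Acta1 at 498 and 411 TPM in KO against 0.172 and 0.249 TPM in WT, while for Myom3 and Fbxo32 the points of both groups lie close together.

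Among thin filament genes, 4 of 5 were called higher, with a median log2 fold change of 6.57. Acta1 (ENSMUSG00000031972, chr8:123891769-123894751, minus strand, GRCm38), skeletal muscle alpha-actin, stood at 498 and 411 TPM in KO 1 and KO 2, against 0.172 and 0.249 TPM in WT 1 and WT 2 (log2 fold change 11.03, SE 0.41). Of its 31-base words, 4.11% also occur in other genes, mostly Actb, the cytoplasmic actin. Neb, which encodes the giant nebulin that runs along the thin filament, was at 31.4 and 23.8 TPM in KO 1 and KO 2, against 0.201 and 0.35 TPM in WT 1 and WT 2 (6.57, SE 0.34). Actc1, cardiac alpha-actin, was scarce everywhere, with 25 and 12 counts in KO 1 and KO 2 and 2 and 1 counts in WT 1 and WT 2 (3.84, SE 0.82, not called). Lmod2 and Lmod3 encode leiomodins, which start new actin filaments. Lmod2 had 207 counts in each KO library and 0 in both WT libraries, at least 172-fold higher, whereas the WT level of Lmod3 was 12.5% of its KO level in CPM.

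Thick filament genes gave 6 calls among 7 tested of 8, with a median log2 fold change of 7.27. Mylpf, the fast regulatory light chain of myosin, was at 191 and 128.4 TPM in KO 1 and KO 2, against 1.75 and 1.61 TPM in WT 1 and WT 2 (7.27, SE 0.46). Myl1, the fast essential light chain, was at 256 and 161 TPM in KO 1 and KO 2, against 57.2 and 77.6 TPM in WT 1 and WT 2 (1.76, SE 0.32, not called). The groups did not overlap for either light chain, but the WT level was 29.4% of the KO level in CPM for Myl1 and 0.650% for Mylpf. The slow and cardiac light chains were lower in level. Myl2, the regulatory chain, was at 13.1 and 10.01 TPM in KO 1 and KO 2, against 0.229 and 0 TPM in WT 1 and WT 2, and Myl3, the essential chain, at 3.92 and 3.50 TPM in KO 1 and KO 2, against 0.562 and 0.778 TPM in WT 1 and WT 2.

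Myosin-binding protein C stabilises the thick filament and has forms named slow (Mybpc1) and fast (Mybpc2), though the slow form is not confined to slow fibres. Mybpc1 had 1879 and 1757 counts in KO 1 and KO 2 and 0 and 1 counts in WT 1 and WT 2, a pooled ratio of 4523-fold (95% exact interval 811 to 178689, counting error only). Mybpc2 had 1023 and 1301 counts in KO 1 and KO 2 and 0 and 1 counts in WT 1 and WT 2. Mylk2, the kinase of skeletal muscle myosin light chains, was at 3.76 and 4.24 TPM in KO 1 and KO 2 and listed at 0 in both WT libraries, at least 270-fold higher. Mybph, a relative of the C proteins, was carried mostly by KO 1, with 142 and 9.46 counts in KO 1 and KO 2, against 0 and 3.10 counts in WT 1 and WT 2. Its value is uncertain, because 46.3% of its 31-base words also occur in Adora1, which overlaps it on the opposite strand. The counts of KO 1 were assigned to transcript Mybph-201, and those of KO 2 and WT 2 to Mybph-202.

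Titin and the M-line split into genes near absent from WT and genes present there. Titin (Ttn), named for its place in the sarcomere after its values were seen, was at 3.07 and 2.67 TPM in KO 1 and KO 2, against 0.00187 and 0.00229 TPM in WT 1 and WT 2 (9.91, SE 0.36). The myomesins crosslink thick filaments at the M-line. Myom2 followed titin, with 7.47 and 8.27 TPM in KO 1 and KO 2, against 0.0312 and 0.0339 TPM in WT 1 and WT 2 (7.54, SE 0.26). Myom1 was at 16.0 and 9.27 TPM in KO 1 and KO 2, against 2.09 and 6.26 TPM in WT 1 and WT 2 (2.16, SE 0.30, not called). Myom3 was nearly level, with 3.57 and 2.78 TPM in KO 1 and KO 2, against 3.15 and 2.52 TPM in WT 1 and WT 2. In TPM its groups overlapped, and in CPM KO 2 at 8.60 stood just above WT 1 at 7.42.

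Z-disc genes were called higher in 13 of 14 cases, with a median log2 fold change of 6.64, and the exception was Csrp3. Tcap, telethonin, which caps the end of titin, was at 45.8 and 27.5 TPM in KO 1 and KO 2, against 0 and 0.113 TPM in WT 1 and WT 2, from 3 WT counts in all (673-fold, exact interval 230 to 3267). Actn3, the alpha-actinin of fast fibres, was at 25.8 and 30.7 TPM in KO 1 and KO 2, against 0.0782 and 0.0720 TPM in WT 1 and WT 2 (10.15, SE 0.34). Its WT level rested on 4 counts in all. Actn2, the alpha-actinin of all fibres and of heart, was at 24.1 and 20.0 TPM in KO 1 and KO 2, against 12.9 and 6.72 TPM in WT 1 and WT 2 (2.95, SE 0.36). Actn2 was called, but not with KO 2 left out, nor in another test, limma on log2(TPM + 1). Myozenins tether calcineurin to the Z-disc. Myoz1, the fast-fibre form, was at 27.9 and 25.7 TPM in KO 1 and KO 2, against 0 and 0.0259 TPM in WT 1 and WT 2, and Myoz2, the slow and cardiac form, at 1.98 and 1.39 TPM in KO 1 and KO 2, against 0.0138 and 0 TPM in WT 1 and WT 2.

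Csrp3, the muscle LIM protein, a Z-disc adaptor, differed most within the KO group. It was at 39.1 TPM in KO 1 and 5.82 TPM in KO 2 and listed at 0 in both WT libraries, at least 320-fold higher. It was not called, and its fitted change had an SE of 2.05. In 8 alternatives it was called, among them the replicate number or the prefix as a block. The other 8 Z-disc genes (Ldb3, Myot, Pdlim3, Flnc, Xirp1, Xirp2, Myoz3 and Synpo2l) spanned 0.900 to 18.5 TPM in KO and 0 to 0.681 TPM in WT. Among them are the PDZ-LIM proteins of actinin (Ldb3, Pdlim3), the actin crosslinkers myotilin (Myot) and filamin C (Flnc), and the Xin actin-binding proteins (Xirp1, Xirp2).

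The stretch-responsive genes, whose products rise in stretched or damaged muscle, were uneven between the KO libraries. Ankrd1 had 62 and 4 counts in KO 1 and KO 2 and 2 and 1 counts in WT 1 and WT 2. Its paralog Ankrd2, an ankyrin repeat protein of the titin I-band, was at 5.71 and 2.29 TPM in KO 1 and KO 2, against 0.102 and 0.157 TPM in WT 1 and WT 2 (5.09, SE 0.72, not called). Smpx, a small muscle protein, was at 6.87 and 3.38 TPM in KO 1 and KO 2 and at 0 in both WT libraries, at least 88.7-fold higher. For the turnover genes, Trim63 (the ubiquitin ligase MuRF1) was at 2.45 and 2.22 TPM in KO 1 and KO 2, against 0.121 and 0.187 TPM in WT 1 and WT 2 (4.53, SE 0.42). Fbxo32 (the ubiquitin ligase subunit atrogin-1) was at 0.815 and 0.838 TPM in KO 1 and KO 2, against 0.482 and 0.652 TPM in WT 1 and WT 2 (0.66, SE 0.24, not called), so its WT level was 63.3% of the KO level in CPM.

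Wild-type brown fat held few of these genes. At 1 TPM or more in both WT libraries, 5 were listed, namely Myl1, Mylpf, Myom1, Myom3 and Actn2. Mylpf rested on few counts there, 24 in WT 1 and 15 in WT 2. At 0.5 TPM Myl3 and Pdlim3 joined them, and 12 genes had at least 10 counts in both WT libraries. The WT level exceeded 10% of the KO level in CPM for 7 genes, which were Myom3 (64.6%), Fbxo32 (63.3%), Myl1 (29.4%), Myom1 (22.3%), Myl3 (15.0%), Actn2 (12.9%) and Lmod3 (12.5%). Myl1 stood far above the rest in WT, at 57.2 and 77.6 TPM in WT 1 and WT 2.

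For Actn2 and Myom3 most WT counts belonged to transcripts annotated as not coding for protein. The coding transcripts of Actn2 had 882 and 619 estimated counts in KO 1 and KO 2, against 44.8 and 42.7 in WT 1 and WT 2, 21.5-fold in CPM. Its transcript Actn2-205, a processed transcript of 501 bases, had 120 and 112 counts in KO 1 and KO 2, against 122 and 67.4 in WT 1 and WT 2, 1.49-fold in CPM. Thus 73.2% and 61.2% of Actn2 counts in WT 1 and WT 2 lay in the short transcript, against 12.0% and 15.3% in KO 1 and KO 2. For Myom3 the split was complete. The coding transcript Myom3-201 had 92.4 and 101 counts in KO 1 and KO 2 and 0 in both WT libraries, whereas the retained-intron transcript Myom3-203 (2551 bases) had 208 and 150 in KO 1 and KO 2, against 230 and 210 in WT 1 and WT 2.

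The 5′ ends of these transcripts are shown because they are what separates them from the coding transcripts of their genes. Capitals mark the bases that lie in no exon of another transcript of the gene, and the next 30 bases of the transcript follow in lower case. The sequences are from GENCODE vM21, with the capitals at chr13:12273996-12274096 on the minus strand (Actn2-205) and chr4:135798190-135798294 on the plus strand (Myom3-203), both GRCm38.
Actn2-205: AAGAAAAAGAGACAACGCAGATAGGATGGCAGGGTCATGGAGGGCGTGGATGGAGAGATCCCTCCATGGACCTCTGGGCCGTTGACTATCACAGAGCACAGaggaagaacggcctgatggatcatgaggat
Myom3-203: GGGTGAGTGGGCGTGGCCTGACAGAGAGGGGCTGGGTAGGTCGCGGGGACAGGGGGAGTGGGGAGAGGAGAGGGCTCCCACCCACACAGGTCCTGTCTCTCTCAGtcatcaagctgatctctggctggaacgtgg
Actn2-205 has 4 exons and overlaps exons 19 to 21 of the 21 exons of Actn2-201. Myom3-203 has 13 exons and overlaps exons 25 to 37 of the 37 exons of Myom3-201. No 31-base word of either transcript occurs in another gene. The reads themselves were not analysed here, so how they fell on these stretches is not known.

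**Figure D2:**
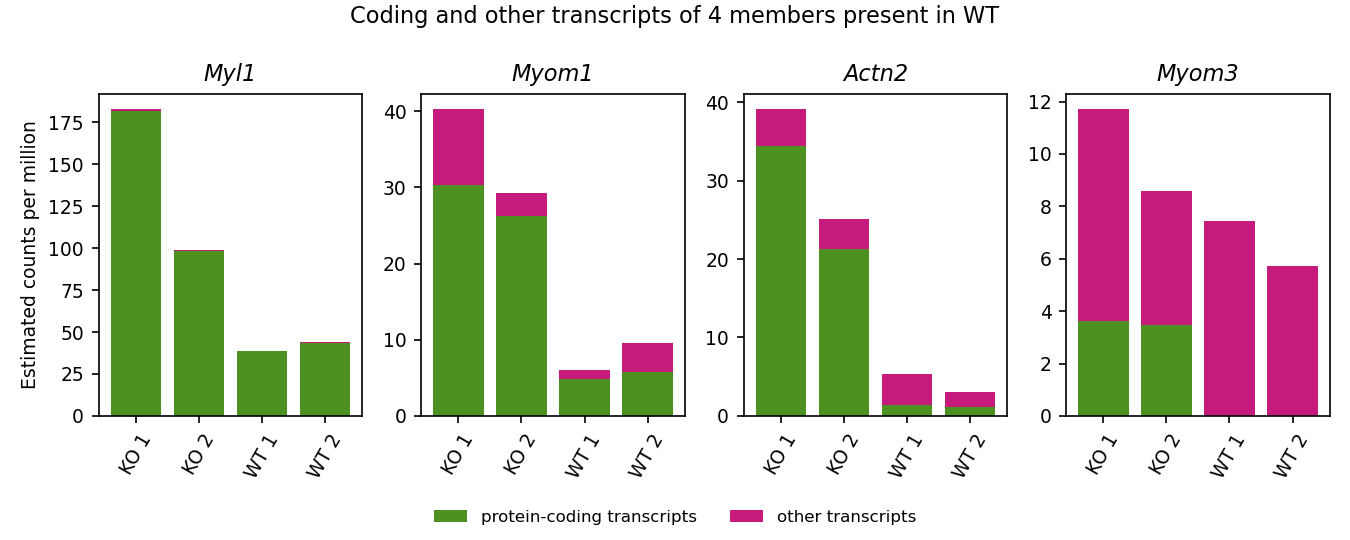
Estimated counts as CPM (scaled library sizes) of Myl1, Myom1, Actn2 and Myom3 in KO 1, KO 2, WT 1 and WT 2, split into protein-coding transcripts (green) and other transcripts (magenta), with a separate axis for each gene. Myl1 is almost wholly coding in all 4 libraries, most of Actn2 in WT is in other transcripts, and the WT bars of Myom3 hold no coding counts.

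Myom1 and Myl1 kept coding counts in WT. Coding transcripts of Myom1 had 774 and 766 counts in KO 1 and KO 2, against 151 and 214 in WT 1 and WT 2, 5.31-fold in CPM, and its other transcripts 258 and 87.9 in KO 1 and KO 2, against 35.9 and 137 in WT 1 and WT 2. In TPM the coding part of Myom1 was 0.966 and 1.19 in WT 1 and WT 2. With coding transcripts alone, a choice made after seeing the data, Myl1 and Mylpf remained at 1 TPM or more in both WT libraries. For Mylpf this rested on 24 and 15 counts in WT 1 and WT 2. In WT 2 its main transcripts, Mylpf-201 and Mylpf-206, were at 0.250 and 0.485 TPM, and the rest of its 1.61 TPM lay in other coding transcripts. The Myl1 gene makes a longer and a shorter light chain from separate starts, here 9789 bases apart, with 188 codons in Myl1-201 and 150 in Myl1-202. The shorter form was at 201 and 132 TPM in KO 1 and KO 2, against 41.9 and 57.5 TPM in WT 1 and WT 2. The longer form was at 32.8 and 15.6 TPM in KO 1 and KO 2, against 12.8 and 7.78 TPM in WT 1 and WT 2. As a share of both forms in counts, the longer made up 19.2% and 14.8% in KO 1 and KO 2, against 30.8% and 16.5% in WT 1 and WT 2, so the groups overlapped. Of the 773 31-base words of Myl1-202 only 4 occur in no other Myl1 transcript, against 131 of 1052 for Myl1-201. The split between the forms is therefore uncertain. Myl1 shares 14.5% of its 31-base words with the pseudogene Mylf-ps on chromosome 12, to which 1.69 counts were assigned in KO 1 and 0 in the other 3 libraries. For Myl1-202 alone, 38.7% of the words occur in other genes, mostly this pseudogene.

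Related forms were set side by side within the KO libraries as ratios of TPM. Mylpf over Myl2 was 14.5 in KO 1 and 12.8 in KO 2, Myl1 over Myl3 65.3 and 45.8, and Myoz1 over Myoz2 14.1 and 18.5. The fast form thus had the higher level in these 3 pairs. Skeletal over cardiac actin (Acta1 over Actc1), which is no contrast of fast with slow fibres, was 750 in KO 1 and 1292 in KO 2. Actn3 over Actn2 was 1.07 in KO 1 and 1.53 in KO 2, and after subtracting the mean WT level 1.80 in KO 1 and 3.0 in KO 2. Mybpc2 over Mybpc1 was below 1, at 0.338 in KO 1 and 0.640 in KO 2. With protein-coding transcripts alone, a choice made after seeing the data, this ratio was 0.599 in KO 1 and 0.796 in KO 2, since 14.0 of the 32.1 TPM of Mybpc1 in KO 1 lay in other transcripts. Actn3 over Actn2 was then 1.67 in KO 1 and 3.89 in KO 2, and Mylpf over Myl2 17.0 and 25.5. Each of the 6 ratios stayed on its side of 1 under this choice.

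Between the KO libraries the genes did not keep a fixed ratio. Among the 33 genes with at least 30 counts in both KO libraries, the ratio of KO 1 to KO 2 had a median of 1.38 in CPM (range 0.772 to 7.0) and 1.21 in TPM (range 0.757 to 6.72). The same medians over 12380 genes were 0.985 in CPM and 0.872 in TPM. The ratio was above 1 for 28 genes in CPM and for 25 in TPM. At 2 or more stood 6 genes in CPM (Csrp3, Ankrd2, Pdlim3, Myl2, Synpo2l and Smpx), against 2.97% of all 12380, and 3 in TPM (Csrp3, Ankrd2 and Smpx), against 2.04%. Each library stands alone here, so the intervals that follow cover counting error only and no test was made.

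Csrp3 had the highest CPM ratio of the 33 at 7.0 (95% exact interval 5.70 to 8.66), and Ankrd2 came next at 2.89 (2.14 to 3.94). At the other end, Actn3 at 0.772 (0.724 to 0.823) and Mybpc2 at 0.896 (0.825 to 0.974) were higher in KO 2, while Myoz3 at 0.863 (0.667 to 1.11) had an interval that takes in 1. Other fast forms lay above 1, with Myl1 at 1.85 and Mylpf at 1.72. Acta1, the most abundant of the set, was at 1.46 (1.43 to 1.49), and Ttn at 1.38 (1.32 to 1.43). The intervals of Csrp3, Ankrd2, Acta1 and Ttn do not meet that of Actn3. With fewer counts, Mybph had a ratio of 18.0 (9.21 to 40.1) and Ankrd1 of 17.7 (6.56 to 66.9).

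**Figure D3:**
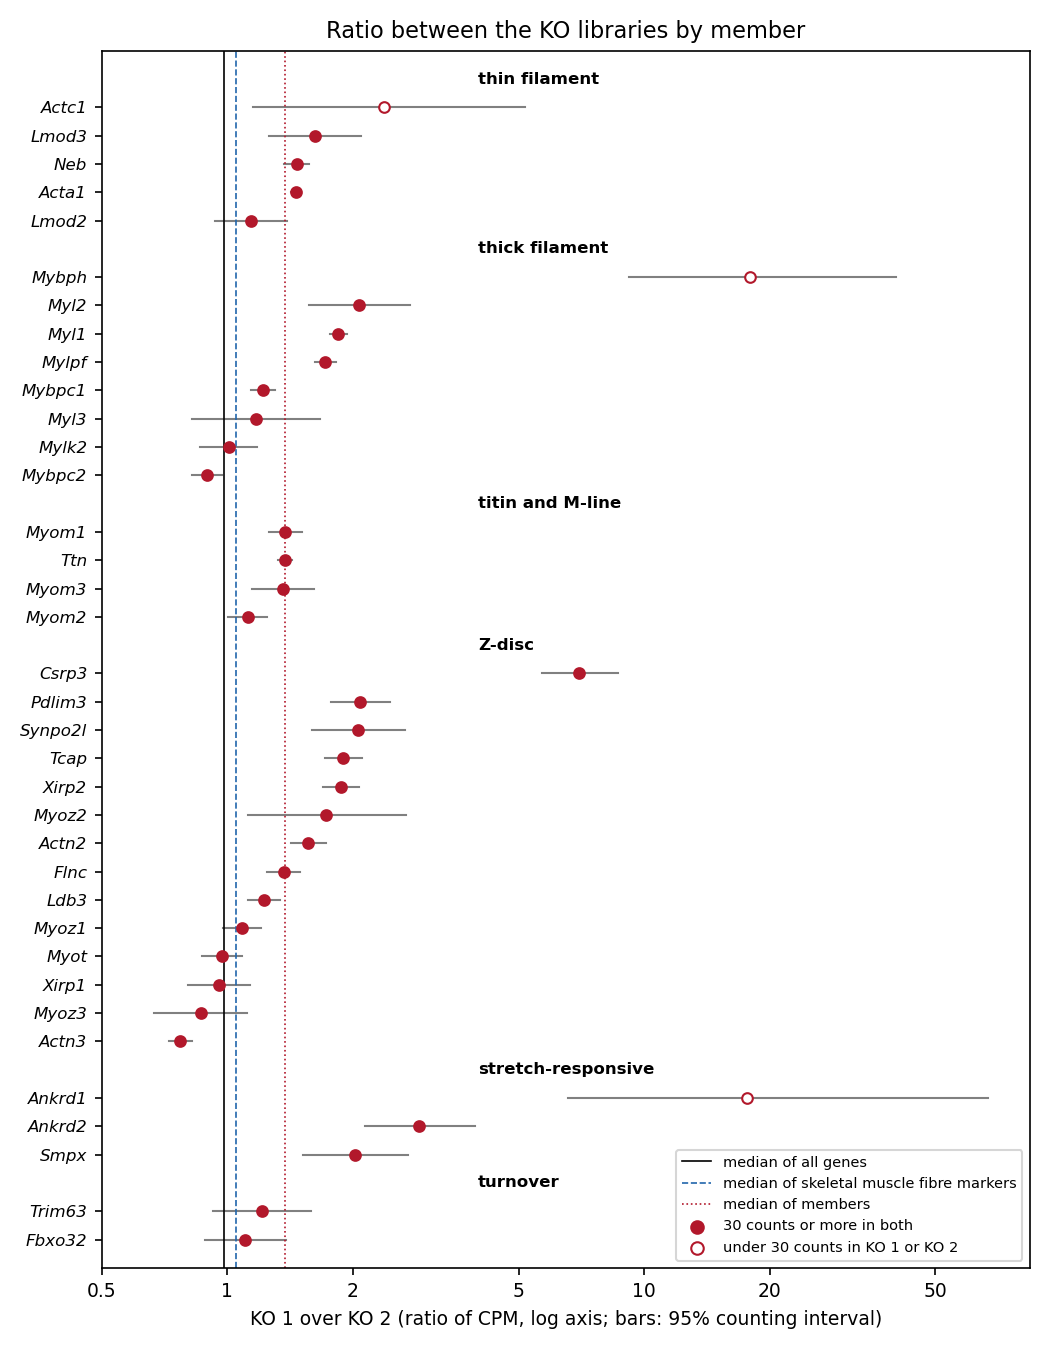
Ratio of KO 1 to KO 2 in CPM (log axis) for each of the 36 genes, grouped by role, with 95% exact counting intervals and open points for genes under 30 counts in a KO library. Vertical lines stand at the medians of all genes (0.985), skeletal muscle fibre markers (1.05) and the 33 genes of the set with enough counts (1.38). Csrp3, Mybph and Ankrd1 lie far to the right, and Actn3 lies furthest to the left.

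The set was also compared across the library name prefix. Within S1 (KO 1 against WT 2), 36 of 36 genes were higher in KO with a median log2 difference of 5.30, and within S2 (KO 2 against WT 1), 36 of 36 with a median of 5.14, in log2 CPM with a prior count of 2. Over all 15643 genes tested the medians were -0.008 within S1 and -0.001 within S2. As the genes were chosen with this contrast in view, nothing is read from the 36 of 36. The smallest difference in the set was that of Myom3 within S2, at 0.21, against 1.03 within S1. In the fit with genotype and prefix, 4 of 34 genes were higher in S2 than in S1, with a median log2 difference (S2 minus S1) of -0.45, against -0.01 over all genes. The prefix contrast called 1 of the 34, Csrp3 (-2.80, SE 0.30), and 3.14% of all 15643 genes. The count in the set thus lies near the share over all genes, and nothing is read from it. The fit with genotype and prefix has 1 residual degree of freedom, and for a gene at 0 in WT it restates the difference between KO 2 and KO 1. Most of these genes were close to absent from WT, so for them it largely repeats that difference.

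Of 40 other genes of the sarcomere and Z-disc, listed from textbook knowledge, 36 were tested. The list was drawn up with earlier results of these data known, so its values are a description and no outside support. By edgeR 12 of the 36 were called higher in KO and 0 lower, against 0.767% of all genes called higher. An unadjusted edgeR p under 0.05 was reached by 23. The median log2 fold change of the 36 was 1.56 (range -0.63 to 10.05). Without KO 2 the count of calls was 7. Nrap, an actin-anchoring protein of the myotendinous junction, was at 7.21 and 5.66 TPM in KO 1 and KO 2, against 0.0396 and 0 TPM in WT 1 and WT 2 (log2 fold change 9.57, SE 0.60, adjusted p = 0.00279 in edgeR). Cmya5, myospryn, was at 2.57 and 3.24 TPM in KO 1 and KO 2, against 0.431 and 0.368 TPM in WT 1 and WT 2 (2.96, SE 0.20, edgeR adjusted p = 0.00361). The kelch proteins Klhl31 and Klhl41 also rose, by 4.91 (SE 0.32) and 6.84 (SE 0.52) on the log2 scale. Trim54 and Trim55, the paralogs of Trim63, were chosen after their values were seen, and both were at 0 counts in WT.

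The 25 non-muscle counterparts (26 gene identifiers, all tested), which build the actin cytoskeleton of cells other than striated muscle, did not show this pattern. The list takes in smooth muscle genes, and Acta2, Actg2 and Myh11 also stand among the smooth muscle markers below. In CPM both KO libraries stood above both WT libraries for 6 of the 26, against 13.2% of all genes tested. By edgeR 0 passed, and 2 had an unadjusted p under 0.05, with 0 called by DESeq2, limma-voom or limma on log2(TPM + 1). Their summed level was 1572 and 1926 TPM in KO 1 and KO 2, against 1875 and 1852 TPM in WT 1 and WT 2, and their median log2 fold change was 0.12 (range -0.21 to 0.96). The 2 were Lmod1, the smooth muscle leiomodin (0.96, SE 0.38), and Acta2, smooth muscle actin (0.70, SE 0.26). Synpo and Csrp1 had the next smallest p, with changes of 0.31 (SE 0.15) and 0.34 (SE 0.17).

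**Figure D4:**
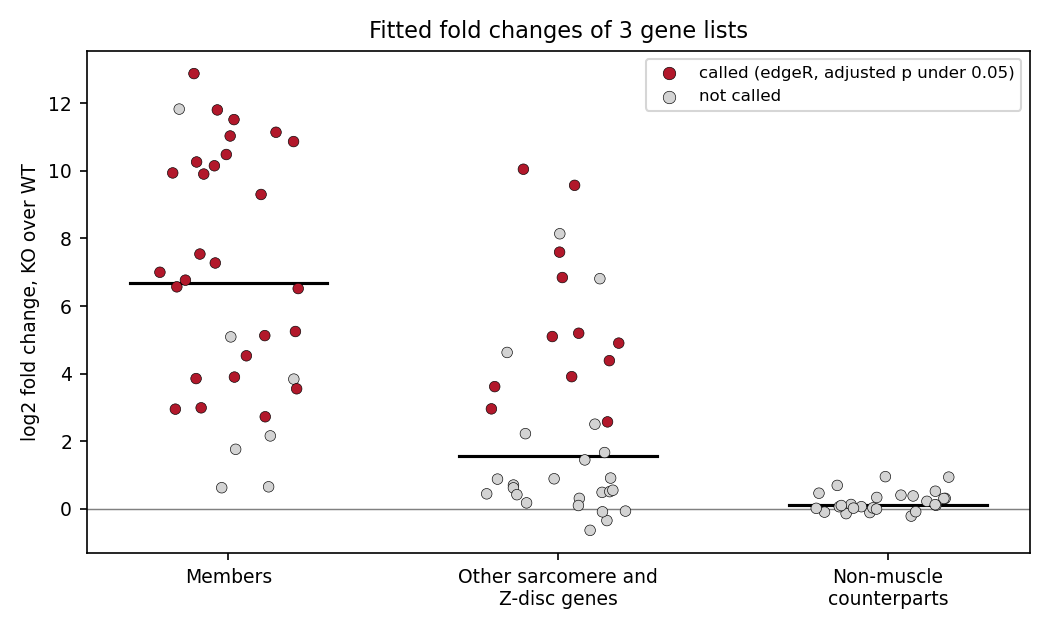
Fitted log2 fold change (KO over WT) of the 34 tested genes of the set, 36 other sarcomere and Z-disc genes and 26 non-muscle counterparts, with red points called in edgeR at an adjusted p under 0.05 and bars at the medians 6.67, 1.56 and 0.12. The fitted values of genes at 0 counts in WT depend on the fit and are no bounds. The non-muscle points lie between -0.21 and 0.96.

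Markers of skeletal muscle fibres, slow fibres included, were also higher in KO. All 14 skeletal muscle fibre markers were called higher and summed to 1464 and 1472 TPM in KO 1 and KO 2, against 8.07 and 8.26 TPM in WT 1 and WT 2, with Myh4, the fastest myosin heavy chain, at 0 in WT. Of 4 slow fibre markers 3 were called higher, and they summed to 21.96 and 15.5 TPM in KO 1 and KO 2, against 1.31 and 1.34 TPM in WT 1 and WT 2. The ratio of KO 1 to KO 2 in CPM had a median of 1.05 over the skeletal fibre markers and 1.58 over the slow fibre markers, against 1.38 over the 33 genes of the set. The part of muscle fibres in the tissue pieces in these results was not tested.

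Other muscle types were close to absent or did not differ past the threshold. The 7 cardiac markers summed to 1.59 and 2.49 TPM in KO 1 and KO 2, against 2.79 and 2.55 TPM in WT 1 and WT 2, with Myl7 at 0 in all 4 libraries and 0 of 1 tested called. The 1 tested, Ryr2, held most of this sum, at 0.890 and 2.18 TPM in KO 1 and KO 2, against 2.29 and 2.33 TPM in WT 1 and WT 2. The other cardiac markers did not pass the filter on low counts. The 4 muscle stem cell and myoblast markers summed to 0.210 and 0.128 TPM in KO 1 and KO 2 and were at 0 counts in WT, and none passed the filter on low counts. The 6 smooth muscle markers summed to 58.1 and 41.6 TPM in KO 1 and KO 2, against 33.2 and 44.1 TPM in WT 1 and WT 2, with 5 tested, 0 called and 2 at an unadjusted p under 0.05. Their groups overlapped in summed level.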

How the data were processed

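RNA-seq was available from 4 libraries of brown adipose tissue, 2 KO and 2 WT, grouped by the genotype in their labels. TRIzol extraction, an RNeasy column and the Illumina TruSeq mRNA Stranded protocol preceded sequencing, per the labels' protocols. The tools named are kallisto 0.45.0 and build mm10, per the submitters' processing notes, and neither transcript set nor strand setting is named. The deposited tables hold an estimated count and a TPM value for each of 141450 transcripts, per the file headers. kallisto splits a read shared by several transcripts between them, so 85.7 to 87.0% of non-zero estimated counts were not whole (tolerance 0.001), and values of overlapping or near-identical transcripts are uncertain.

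Transcripts were matched to GENCODE vM21 (GRCm38), which took in 138191 (97.7%), and the 3259 unmatched ones held 0.992 to 1.04% of counts and stayed out. Gene values are the rounded sums of the estimated counts and the sums of the TPM values that the authors deposited. The test was edgeR 4.0.16 quasi-likelihood in R 4.3.3 on genotype alone, scaled by TMM and filtered by filterByExpr (minimum count 10, minimum total 15), with Benjamini-Hochberg adjustment over 15643 genes and a threshold of 0.05. With 2 libraries a group an exact permutation test cannot go below p = 0.333, so none was run. The p-values thus reflect variation among these 4 libraries alone.

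The genes and lists were chosen with earlier results of these data known. Values in every library were given for the 2 genes of each role with the highest KO TPM, those at 1 TPM or more in WT, those not called or not tested, up to 3 at 0 counts in WT and 6 pairs of forms. Up to 4 genes per other list were named by smallest p. Folds over 0 counts use a floor of 3 counts over both WT libraries, and both floors and intervals leave out all but counting error. The alternatives tried were other scaling, filters, blocks and tests (DESeq2 1.42.0, limma 3.58.1), and each library left out. Replicate numbers are in the titles. The residuals of KO 1 and WT 1 correlated at -0.382 over 15643 genes. With 2 libraries a group the residuals of a group mirror each other. The value for KO 1 and WT 2, of the same prefix, is therefore 0.382 by construction and no second result. By this 1 value the numbers do not pair the libraries, and the crossed pairing equals the prefix block.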

Additional observations from a re-analysis of the deposited data

How the results depend on the processing

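Over 407 refits of the 34 tested genes, 354 kept their side of the threshold, 30 gained a call, 23 lost it and 0 changed sign. In every setting 18 genes were called. Myl3 lost its call in 6 settings, Lmod3 in 4, Myoz2 and Synpo2l in 3 each, Actn2 and Myl2 in 2 each, and Pdlim3, Smpx and Xirp1 in 1 each, while Ankrd2, Csrp3, Myom1, Myl1 and Actc1 gained calls. Calls in the set ranged from 23 to 34, with 32 under the prefix as a block. The total of 122 called genes was 218 in DESeq2, 320 with the prefix as a block, 457 with no filter and 78 to 205 with 1 library left out (78 without KO 2, 187 without WT 1, 205 without WT 2). Calls in the set with 1 library left out were 23 to 30, those among the other sarcomere genes 7 to 17 (7 without KO 2) and those among non-muscle counterparts 0 to 0, while the set's median log2 fold change ranged from 6.33 to 6.92. The other sarcomere genes gave 20 calls with no filter. With the replicate number as a block 164 genes were called, with 30 in the set, 16 among the other sarcomere genes, 0 non-muscle counterparts and a median of 6.71. These numbers do not pair the libraries. The set's median was 2.18 on the log2(TPM + 1) scale, where the pseudocount shrinks low genes. Genes called by prefix were 1446 with no filter, and members of the set 8 with no filter, 3 with DESeq2 size factors and 2 in limma-voom, against 1. Genes listed in WT were 12 at 10 counts, 2 with protein-coding transcripts alone and 5 to 5 with a WT library left out. The median ratio of KO 1 to KO 2 was 1.38 in CPM. Apart from the pseudocount the causes were not tested. Depth limits how well a fold is known where WT counts are few, as for Actc1 (15.3-fold, 95% exact interval 4.86 to 77.8) and Ankrd1 (27.4-fold, 8.96 to 136), counting error only.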

Other observations

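Some other genes of the sarcomere list, chosen after their values were seen, were also uneven between the KO libraries. Mylk4, a myosin light chain kinase of muscle, had 268 and 10.3 counts in KO 1 and KO 2, against 1.03 and 2.36 in WT 1 and WT 2, a CPM ratio of KO 1 to KO 2 of 30.6 (95% exact interval 16.4 to 64.4, counting error only). Hspb7, a small heat shock protein of heart and skeletal muscle, had 905 and 230 counts in KO 1 and KO 2, against 28.8 and 30.4 in WT 1 and WT 2, a ratio of 4.49 (3.88 to 5.21). Neither passed in edgeR.

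Genes of the same list that cells without sarcomeres also use, chosen after their values were seen, went different ways, and none passed in edgeR. Palld, palladin, was at 6.13 and 10.5 TPM in KO 1 and KO 2, against 9.39 and 9.47 TPM in WT 1 and WT 2. Hspb8 was at 41.2 and 60.2 TPM in KO 1 and KO 2, against 48.5 and 66.4 TPM in WT 1 and WT 2. Bag3, the chaperone partner of Hspb8 in clearing damaged filaments, was at 14.6 and 30.7 TPM in KO 1 and KO 2, against 35.99 and 24.3 TPM in WT 1 and WT 2. Fhl1, a LIM protein, was at 107 TPM in both KO 1 and KO 2, against 83.0 and 82.0 TPM in WT 1 and WT 2. Pdlim7, a PDZ-LIM protein, was at 9.47 and 10.1 TPM in KO 1 and KO 2, against 6.15 and 5.59 TPM in WT 1 and WT 2. Cryab, a small heat shock protein, was at 93.1 and 68.2 TPM in KO 1 and KO 2, against 55.97 and 36.7 TPM in WT 1 and WT 2. These 3 genes were higher in both KO libraries, at an unadjusted p of 0.0388 for Fhl1, 0.0268 for Pdlim7 and 0.0375 for Cryab (edgeR, adjusted p = 0.9998 each).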
